A study of Mus musculus with 12 samples.

Results

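The cytosolic ribosomal protein genes were examined on 12 whole-transcript arrays of E14, an established line of mouse embryonic stem cells. They were taken as all transcript clusters, the array's units of measurement, annotated to a single gene named Rpl, Rps or Rplp with a number, or Rpsa, without -ps pseudogenes and without the Rps6k kinases. The brightest cluster stood for a gene with several. This gave 67 genes of the 22180 in the table, 42 of the large (60S) and 25 of the small (40S) subunit, from 108 clusters. RefSeq lists Rpl6l as a pseudogene and Rps4l as a transcribed pseudogene, and both were kept because the rule goes by symbol. A further 12 ribosomal protein genes, Rpl10, Rpl12, Rpl13a, Rpl23, Rpl24, Rpl31, Rpl35a, Rpl36, Rpl36a, Rps15a, Rps2 and Rps21, were seen only in clusters shared with another gene and are not members. Ribosomal protein genes have many near-identical processed copies in the genome, and signal from such copies cannot be told apart from that of the gene itself on these arrays.

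The 4 groups had 3 arrays each. All cells had been transduced with a hairpin construct: shCT, the control, or shLOXL2, against LOXL2, a member of the lysyl oxidase family. Each construct was sampled without RA at day 0 and with RA, read here as retinoic acid, at day 1. No group was kept for a day without RA, so RA and a day of culture cannot be told apart, and "with RA" means both. The labels give no dose, no clone and no statement that replicates were separate cultures, so p-values measure the spread between these samples only.

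A ribosome is built from a small subunit, which decodes the messenger RNA, and a large subunit, which forms the peptide bonds, and each carries its own set of proteins around a core of ribosomal RNA. The proteins are needed in near-equal numbers, and their messenger RNAs are among the most abundant of a growing cell. Most of these messenger RNAs begin with a 5′ terminal oligopyrimidine (TOP) tract, a C followed by a run of C and T, through which the mTOR kinase and Larp1 control their translation. That control acts on translation and is not read by an array of RNA levels. Pluripotent stem cells are known for active ribosome production, with Myc proteins among its drivers.

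The transcription starts of the members were read first, because the TOP tract is the sequence feature the family is known for. RefSeq promoters (GRCm38.p6) were matched for 52 of the 67 members, with 61 annotated starts. A tract was counted as a C exactly at the annotated start followed by at least 4 bases that are C or T, on the gene's own strand. It stood at 11 of the 61 member starts (18.0%), at 823 of 32851 starts of all genes (2.51%) and at 0 of 75 starts of mitochondrial ribosomal protein genes. With at least 6 such bases after the C it stood at 14.8% of member starts and 1.08% of all starts. Where the tract could begin anywhere within 5 bases of the annotated start it was found at 24 member starts (39.3%), at 18.3% of all starts and at 22.7% of the mitochondrial ones. An annotated start may lie a few bases from the true one, so a missing tract says only that these letters are not at this position.

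The 6 members printed next have a tract within 5 bases of the start. They are shown because the results below turn on them, from Rps6 and Rpl28 with their near-constant signals to Rpl39 with one of the lowest changes. Each line gives 40 bases before the annotated start and 15 from it on, with the tract in capitals.
Rpl38, chr11:114668540-114668594, plus strand: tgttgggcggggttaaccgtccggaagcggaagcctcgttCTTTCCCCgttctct
Rps6, chr4:86857353-86857407, minus strand: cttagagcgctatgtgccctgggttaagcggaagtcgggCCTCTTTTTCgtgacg
Rpl28, chr7:4792925-4792979, plus strand: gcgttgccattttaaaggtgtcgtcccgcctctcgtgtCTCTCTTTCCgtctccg
Rps10, chr17:27635230-27635284, minus strand: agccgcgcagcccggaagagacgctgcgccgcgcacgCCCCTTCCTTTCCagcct
Rps27, chr3:90213634-90213688, minus strand: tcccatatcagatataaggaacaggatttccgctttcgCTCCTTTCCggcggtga
Rpl39, chrX:37085208-37085262, minus strand: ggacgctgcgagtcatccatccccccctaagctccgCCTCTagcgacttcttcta

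The next 4 have no such tract and are shown because their array values are given below. In Rpl39l, the paralog of Rpl39, the bases around the start differ from those of its partner above, and no tract begins within 5 bases of it.
Rpl39l, chr16:10170188-10170242, plus strand: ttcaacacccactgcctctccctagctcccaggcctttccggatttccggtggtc
Rpl7l1, chr17:46782642-46782696, minus strand: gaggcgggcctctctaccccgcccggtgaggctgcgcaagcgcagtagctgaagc
Rpl37a, chr1:72711220-72711274, plus strand: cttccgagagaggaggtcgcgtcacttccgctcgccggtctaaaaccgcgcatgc
Rps13, chr7:116334176-116334230, minus strand: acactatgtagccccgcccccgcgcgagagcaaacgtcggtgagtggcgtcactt
Rps20, the only member whose change with RA passed the threshold, is among the 15 members not matched in the promoter table. The change with RA, averaged over both constructs, had a median of -0.05 log2 units over the 22 members with a tract within 5 bases and of -0.08 over the 30 matched members without one. The ranges overlapped, from -0.31 to 0.15 and from -0.27 to 0.27.

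Of the series as a whole, array medians lay between 4.58 and 4.68 log2 units and correlations between arrays between 0.939 and 0.985. The targeted Loxl2 was read by 2 clusters, both shared with Gm21451. On average over RA states the first was at 60.03% of control in shLOXL2 (-0.74 ± 0.14 log2, SE; exact two-sided permutation p = 0.005, the smallest that relabelling within RA states can give; limma adjusted p = 0.28) and the second at 65.0% (-0.62 ± 0.16; exact p = 0.03; adjusted p = 0.543). Without RA the first stood at 67.5% of control (-0.57 ± 0.20) and with RA at 53.4% (-0.91 ± 0.20). The second stood at 89.6% without RA (-0.16 ± 0.22), where its arrays overlapped (4.92, 4.58 and 5.27 in shCT, 4.58, 4.69 and 5.03 in shLOXL2), and at 47.2% with RA (-1.08 ± 0.22). All 15 pluripotency markers measured lay above the highest array median in every group. With RA 8 of the 15 fell and 1 rose, and their summed level on the log2 scale went from 13.65 to 13.90 in shCT at day 0 to 13.41 to 13.50 at day 1, and from 13.77 to 13.86 to 13.46 to 13.54 in shLOXL2. Over all genes 1224 of 22180 rose with RA on average and 1065 fell. Among markers of other cells, with RA 2 of 10 fibroblast, 2 of 8 primitive endoderm and 2 of 6 neural genes rose and none fell. Pdgfra is on both the fibroblast and the endoderm list. The part of such cell state changes in the results below was not tested.

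With RA, on average over both constructs, 1 of the 67 members passed an adjusted p of 0.05 in the limma fit, and it fell. Over all genes 10.3% passed, 4.8% with a fall. The count depended on the fit. It was 12 members with array weights, where 26.9% of all genes passed, and 3 with the main axis of deviations within groups as a covariate (all genes 20.7%). It was 2 with the replicate number as a fixed or a random block within construct (all genes 16.6% and 17.5%). The median change over the members was -0.07 log2 units (all genes -0.01), and 54 of the 67 had a negative change (80.6%; all genes 51.5%). The 95% interval of the change lay within 0.5 log2 units (1.41-fold) of zero for 58 of the 67 members (86.6%; all genes 72.2%) and within 1 log2 unit for all 67. At an unadjusted p of 0.05, 6 members passed, against 22.2% of all genes.

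The member that fell was Rps20, a protein of the head of the small subunit. In shCT its signal was 7.26, 7.27 and 7.11 log2 units without RA and 6.84, 6.74 and 6.60 with RA. In shLOXL2 it was 6.91, 7.39 and 7.26 without RA and 6.94, 6.66 and 6.70 with RA. The arrays with and without RA did not overlap in shCT, and in shLOXL2 they overlapped through the first replicate of each state. The average change was -0.45 ± 0.10 log2 units (SE; 95% interval -0.67 to -0.23), a signal 26.9% lower, with an adjusted p of 0.011. In the single constructs it was -0.49 ± 0.14 (adjusted p = 0.081) and -0.42 ± 0.14 (adjusted p = 0.161), neither past the threshold; without the first shLOXL2 array at day 0 both passed, at -0.49 (adjusted p = 0.044) and -0.56 (adjusted p = 0.048). The RA responses of the constructs differed by 0.07 ± 0.20, with an interval from -0.37 to 0.51. Rps20 was called in 22 of 22 other ways of processing, with changes from -0.55 to -0.39 and adjusted p-values up to 0.035, 12 of them with 1 array left out.

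A second, dimmer cluster of Rps20 gave a smaller change that did not pass. It read 6.17, 6.68 and 6.55 log2 units in shCT without RA and 6.11, 6.05 and 6.24 with RA, and 6.41, 6.13 and 6.57 in shLOXL2 without RA and 6.38, 5.90 and 5.84 with RA. Its arrays overlapped in both constructs. In a fit over all clusters its change was -0.33 ± 0.13 (adjusted p = 0.224), against an adjusted p of 0.030 for the brighter cluster in that same fit.

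**Figure D1:**
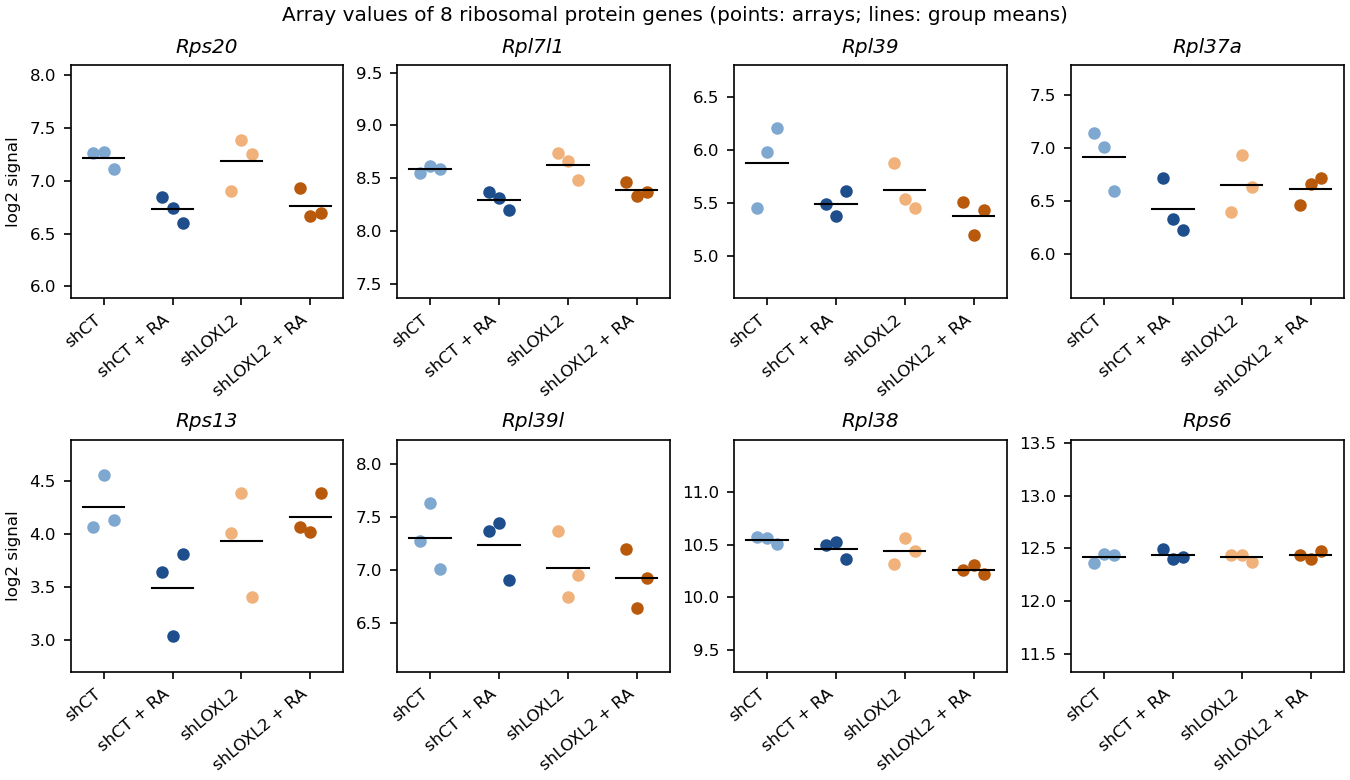
Log2 signal of 8 ribosomal protein genes in each of the 12 arrays, with points for arrays, lines for group means and the same height of scale in every panel. Rps20 and Rpl7l1 sit lower with RA in both constructs, Rps13 has its lowest group mean in shCT with RA, and the Rps6 arrays lie between 12.37 and 12.50.

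Behind Rps20 no member passed the threshold. Rpl7l1, a paralog of Rpl7, came nearest. It read 8.55, 8.61 and 8.59 log2 units in shCT without RA and 8.37, 8.32 and 8.20 with RA, and in shLOXL2 8.74, 8.66 and 8.48 without RA and 8.46, 8.33 and 8.37 with RA. The arrays did not overlap in either construct. The average change was -0.26 ± 0.08 with an adjusted p of 0.054, and it passed in 8 of 23 settings, the one reported included, among them the fixed (adjusted p = 0.041) and the random replicate block (adjusted p = 0.015). Rpl39, a small protein lining the exit tunnel of the large subunit, read 5.45, 5.98 and 6.21 without RA and 5.49, 5.37 and 5.61 with RA in shCT, and 5.87, 5.53 and 5.45 against 5.51, 5.2 and 5.43 in shLOXL2. Both pairs of groups overlapped, and the change of -0.31 ± 0.13 had an adjusted p of 0.167. Without the first shCT array at day 0, the lowest of its group, it was -0.42 ± 0.11 and passed (adjusted p = 0.026). The remaining members with an unadjusted p under 0.05 were Rpl6 (-0.27 ± 0.12, adjusted p = 0.206), Rpl30 (-0.27 ± 0.12, adjusted p = 0.211) and Rpl10l (0.27 ± 0.11, adjusted p = 0.171), the one of the 6 with a positive change.

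**Figure D2:**
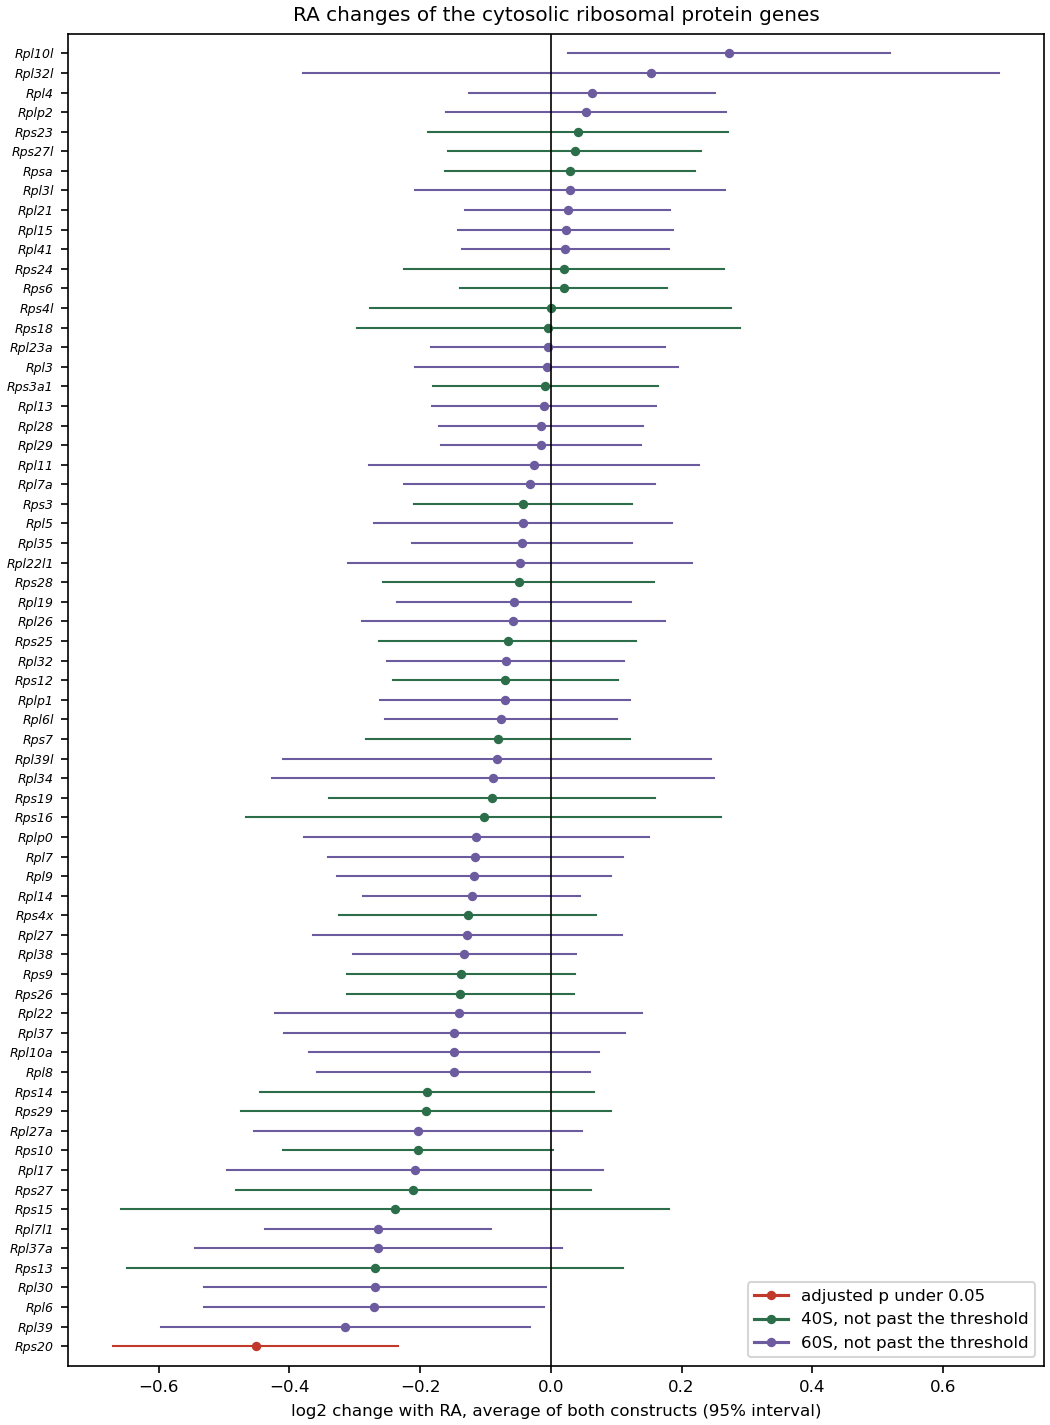
Change with RA, averaged over both constructs, of the 67 members in log2 units with 95% intervals, ordered by size and coloured by subunit. Rps20, at -0.45, is the only member past the adjusted threshold, and the other changes run from -0.31 for Rpl39 to 0.27 for Rpl10l.

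Within single constructs no member passed in the fit reported. In shCT 4.25% of all genes passed and 0 members did; 5 members had an unadjusted p under 0.05, against 16.5% of all genes, and the median over the members was -0.04. These 5 were Rps20, Rps13, Rpl37a, Rpl6 and Rpl7l1, all with lower values with RA. With 1 array left out the median ran from -0.12, without the third shCT array at day 0, to 0.0045, without the third shCT array at day 1. The count in shCT was 10 with array weights (all genes 23.6%), 3 with the axis as a covariate (all genes 11.2%), 1 with the fixed block (all genes 8.12%) and 2 with the random block (all genes 9.23%). In shLOXL2 3.46% of all genes passed and 0 members did (7.32% and 0 with the replicate number as a block, and 12.0% and 5 with array weights); 3 members had an unadjusted p under 0.05, against 14.4% of all genes, and the median was -0.09. These were Rps20, Rps10 (-0.32 ± 0.14, adjusted p = 0.299) and Rpl10l (0.36 ± 0.16, adjusted p = 0.33). Rps29, at -0.38 ± 0.19, and Rpl7l1, at -0.24 ± 0.11, followed with adjusted p-values of 0.381 and 0.364.

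The subunits had similar values. The median change with RA on average was -0.07 over the 42 genes of the 60S subunit, of which 34 had negative changes, and -0.08 over the 25 genes of the 40S subunit, of which 20 did. Rps20 was the 1 of the 25 that passed.

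The P stalk of the large subunit, which recruits the elongation factors, is made of Rplp0, Rplp1 and Rplp2, and 0 of the 3 passed. Rplp0, the stalk's base, read 10.15, 9.94 and 9.55 without RA and 9.89, 10.12 and 9.65 with RA in shCT, and its average change was -0.11 ± 0.12. Rplp1 had a change of -0.07 ± 0.09 and Rplp2 of 0.05 ± 0.10. The Rplp2 cluster, with values from 4.28 to 5.11, lay at the level of the array medians, with a mean of 4.65. A brighter cluster shared by Rplp2 and Snora52, with a mean of 10.17, changed by -0.39 ± 0.18 (adjusted p = 0.304 in the limma fit over all clusters).

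A set of ribosomal proteins has been described as uneven between the ribosomes of mouse embryonic stem cells, and 5 of its genes were measured. With RA 0 of the 5 passed, and all 5 changes were negative (all genes 51.5%), with a median of -0.14. Rpl38, needed for the translation of Hox messenger RNAs, read 10.57, 10.57 and 10.51 in shCT without RA, 10.49, 10.52 and 10.36 with RA, 10.32, 10.56 and 10.44 in shLOXL2 without RA and 10.26, 10.31 and 10.22 with RA. Its arrays overlapped in shCT and not in shLOXL2, and the average change was -0.13 ± 0.08 (adjusted p = 0.370). Rps10, near the messenger RNA entry, had a change of -0.20 ± 0.10 (adjusted p = 0.234), Rpl10a of -0.15 ± 0.10, Rps26, near the messenger RNA exit, of -0.14 ± 0.08 and Rps25, used by some viral internal entry sites, of -0.07 ± 0.09.

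Of the ribosomal proteins that bind Mdm2, the ubiquitin ligase of p53, 7 genes were measured, and 0 passed with RA (median -0.04). Rpl11 and Rpl5, which bind it together with the 5S RNA, had average changes of -0.03 ± 0.12 and -0.04 ± 0.11. The Rpl11 responses are described with the comparison of the constructs. Of 15 measured genes mutated in Diamond-Blackfan anaemia, a failure of red cell production, 1 passed, Rps20, and the median was -0.08. The next smallest p-values among them were those of Rps10, given above, and Rps26. Rps19, the first gene tied to that disease, had a change of -0.09 ± 0.12.

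Paralogs, further copies of core ribosomal protein genes, were read beside core partners. The lists are not matched pairs, since the core list holds Rpl26, whose paralog was not measured, and Rpl10, the partner of Rpl10l, is not a member. Of 7 paralogs measured 0 passed, and the median was 0.00 with 4 negative changes. Of 7 core partners measured 0 passed either, with 7 negative changes (all genes 51.5%) and a median of -0.13. Brighter clusters that core partners share with other genes changed by -0.07 ± 0.12 for Rpl39, -0.08 ± 0.08 for Rps27 and 0.05 ± 0.08 for Rpl26. Rpl7l1 stood at -0.26 and Rpl7 at -0.12 ± 0.10. Rpl39l, known from the male germ line, read 7.27, 7.63 and 7.01 in shCT without RA, 7.37, 7.44 and 6.90 with RA, 7.37, 6.75 and 6.95 in shLOXL2 without RA and 7.20, 6.64 and 6.93 with RA. Its groups overlapped throughout, and its change was -0.08 ± 0.15 beside -0.31 for Rpl39. Rps27l, a p53 target, had a change of 0.04 ± 0.09 and Rps27 of -0.21 ± 0.13. Rpl22l1 had a change of -0.05 ± 0.12 and Rpl22 of -0.14 ± 0.13, and Rpl3l, known from muscle, of 0.03 ± 0.11 beside -0.01 ± 0.09 for Rpl3. Rps4l stood at 0.00 ± 0.13 and Rps4x, its X-linked partner, at -0.13 ± 0.09. Rpl10l, the autosomal copy of the X-linked Rpl10, read 6.78, 7.16 and 6.66 without RA and 7.28, 7.05 and 6.84 with RA in shCT, and 6.77, 6.81 and 6.59 against 7.01, 6.94 and 7.29 in shLOXL2. The shLOXL2 groups did not overlap and the shCT groups did. No difference within a pair was tested.

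Several members serve as reference genes in RT-qPCR, and 7 were measured. With RA 0 of the 7 passed, all 7 changes were negative (all genes 51.5%), and the median was -0.11. The range over the 4 group means ran from 0.11 log2 units to 0.50 with a median of 0.26. Of 10 other common reference genes 0 passed, with a median change of -0.01 and ranges from 0.04 to 0.71 (median 0.22). Rpl30 had the widest range of the 7, with a change of -0.27, and Rps18 (0.00 ± 0.14) and Rpl19 (-0.06 ± 0.08) had the changes nearest to zero. The Rpl30 cluster was dim, with a mean signal of 5.86. Brighter clusters shared by Rpl30 and other genes, with means of 10.09, 10.08 and 8.99, changed by 0.05 ± 0.12, 0.05 ± 0.14 and -0.41 ± 0.14. The median residual SD between arrays of a group was 0.221 for the ribosomal and 0.159 for the other reference genes. These lists were not matched for brightness.

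How far a member varied went with how bright its cluster was. A cluster's brightness depends on its probes as well as on the RNA, so levels are not compared between genes, and brightness is used here for precision alone. The 27 members with a mean signal of 10 or more had a median residual SD of 0.094 log2 units (all 291 such genes 0.132). Their changes with RA ran from -0.15 to 0.06, with a median of -0.04 (all such genes -0.03). The 13 members between 8 and 10 had a median residual SD of 0.150 and a median change of -0.09 (all genes of that class 0.169 and -0.03). The 20 members between 5 and 8 had 0.221 and -0.17 (all genes of that class 0.192 and 0.02), with changes from -0.45 for Rps20 to 0.27 for Rpl10l. The 7 members below 5, Rpl32l, Rps13, Rplp2, Rpl11, Rpl3l, Rps15 and Rps16, had 0.343 and -0.03 (all genes of that class 0.209 and -0.02). Of these 7 members 3 lay under the highest array median. Among all genes of these classes, from bright to dim, 5.84%, 15.1%, 17.2% and 3.84% passed for RA on average. The spread between arrays of a group was thus smallest for the bright members and largest for the dim ones. Above 8 the members' median spread lay under that of all genes of the class, and below 8 it lay over it.

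**Figure D3:**
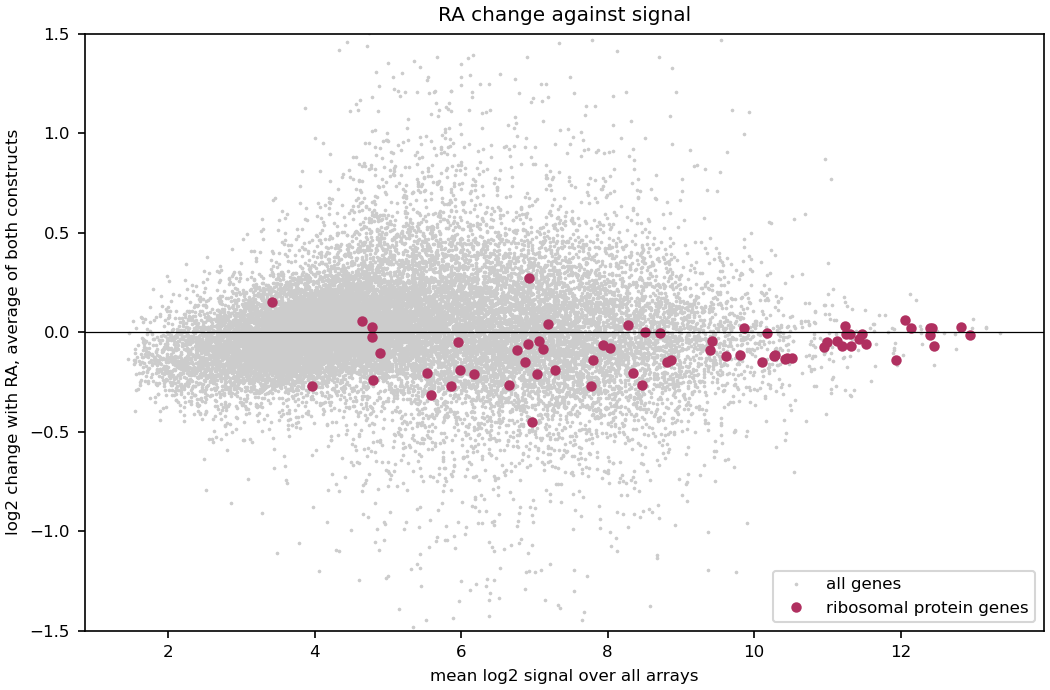
Change with RA, averaged over both constructs, against the mean log2 signal over 12 arrays, with members in colour and all genes in grey; 68 genes beyond 1.5 log2 units on the vertical axis are not drawn. Members of 10 or more lie between -0.15 and 0.06, and those between 5 and 8 spread from -0.45 to 0.27.

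The narrowest ranges of group means were those of Rps6, Rpl28 and Rpl21. The highest value in the table is 13.8 log2 units, and whether signals are compressed near the top of the scale was not tested. Rps6, the target of the S6 kinases in the small subunit, read 12.37, 12.45 and 12.44 in shCT without RA, 12.50, 12.40 and 12.41 with RA, 12.44, 12.44 and 12.37 in shLOXL2 without RA and 12.44, 12.40 and 12.47 with RA. Its 4 group means lay within 0.022 log2 units, and the interval of its change with RA ran from -0.14 to 0.18. Rpl28 and Rpl21, both of the large subunit, had ranges of 0.040 and 0.041. The median range was 0.190 over the members and 0.280 over all genes, with 34 members under 0.2 and 7 over 0.4. The widest ranges were those of Rps13 (0.760), Rpl39 (0.50) and Rpl30 (0.498). Their mean signals were 3.96, 5.59 and 5.86.

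Where a member had several clusters, the dimmer one often had the lower change. Of the 25 members with several clusters 24 had at least 2 with different values. In 18 of the 24 the dimmest cluster had a lower change with RA than the brightest, and the medians were -0.16 and -0.05. A matching count over all genes with several clusters was not made, so whether this is particular to the members was not tested. For Rpl35 the changes were -0.47 ± 0.14 in the dimmest and -0.04 ± 0.08 in the brightest cluster, for Rps26 -0.47 ± 0.23 and -0.14 ± 0.08, and for Rpsa, the laminin receptor precursor of the small subunit, -0.22 ± 0.10 and 0.03 ± 0.09. Rplp0 went the other way, with 0.04 ± 0.08 and -0.11 ± 0.13, as did Rps20. Of the 101 distinct clusters of the members 1 passed in the fit over all clusters, where 4.68% of all 41345 did, and it was the brighter one of Rps20. Which transcripts or copies the dim clusters read was not tested.

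**Figure D4:**
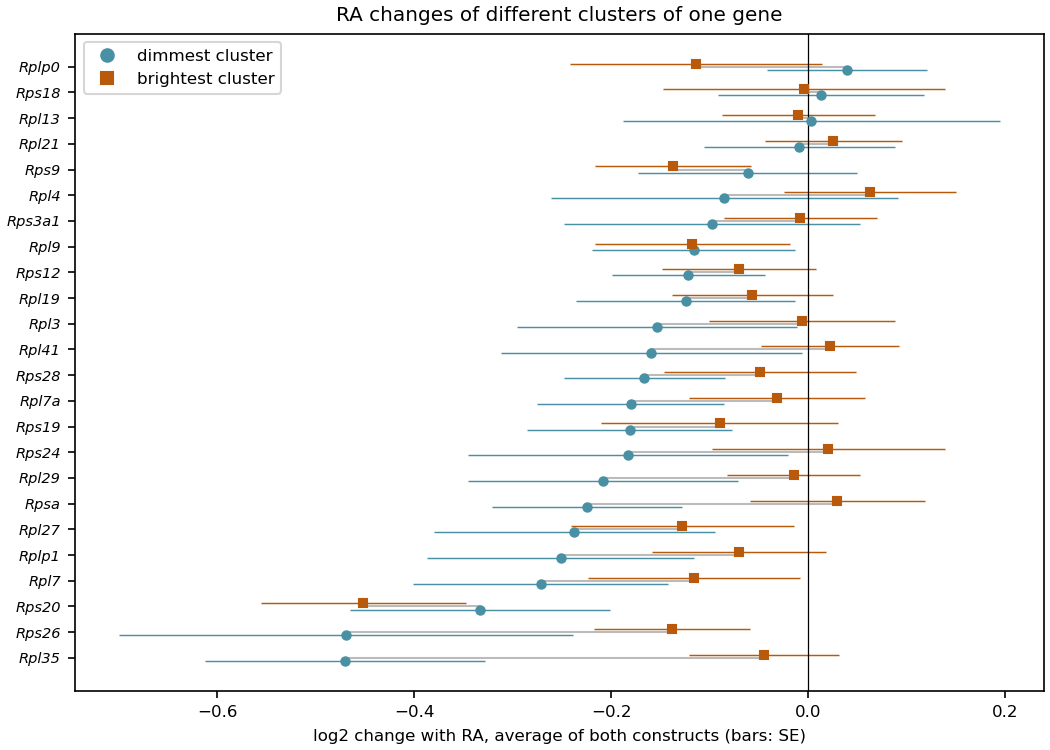
Change with RA, averaged over both constructs, in the dimmest (circles) and brightest (squares) cluster of the 24 members with different clusters, in log2 units with SE bars. In 18 of them the circle lies to the left, farthest for Rpl35 and Rps26.

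Knockdown changed no member past the threshold. On average over RA states 0 of the 67 passed (all genes 0.0541%), 0 had an unadjusted p under 0.05 (all genes 6.72%), and the median was -0.04. Of the 67 changes 45 were negative (67.2%; all genes 49.2%). The 95% interval lay within 0.5 log2 units of zero for 63 of the 67 (94.0%; all genes 86.3%). Without RA 0 passed (all genes 0.0%; unadjusted, 0 members and 4.68% of all genes), and with RA 0 passed (all genes 0.0%; unadjusted, 3 members and 4.96% of all genes). These counts are from limma; with array weights 5 members passed without RA (all genes 13.0%) and 1 on average (all genes 4.52%). Every comparison of the knockdown shares its arrays with the RA comparisons above, so the values are not independent of them.

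The smallest p-values for knockdown on average were those of Rpl23a, Rplp1, Rplp2, Rpl39l and Rps12. Rpl23a, by the exit tunnel of the large subunit, read 10.19, 10.30 and 10.35 in shCT and 10.15, 10.17 and 9.95 in shLOXL2 without RA, and 10.36, 10.21 and 10.21 against 10.20, 10.07 and 10.02 with RA. The shLOXL2 arrays lay under the shCT arrays in both states, and the change was -0.17 ± 0.08 (limma adjusted p = 0.755). Rplp1 had a change of -0.18 ± 0.09 and Rplp2 of 0.20 ± 0.10, Rpl39l of -0.30 ± 0.15 and Rps12 of -0.16 ± 0.08, with adjusted p-values from 0.756 to 0.783. Rpl38 stood at -0.15 ± 0.08 and Rps20 at 0.00 ± 0.10. With RA the 3 members under an unadjusted p of 0.05 were Rplp2 (0.38 ± 0.14), Rps13 (0.67 ± 0.25) and Rplp1 (-0.31 ± 0.13), each with an adjusted p of 0.972. Rplp1 read 12.53, 12.71 and 12.48 in shCT and 12.40, 12.34 and 12.05 in shLOXL2 with RA, without overlap.

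The RA responses of the constructs were not found to differ for any member: 0 passed (all genes 0.0%), 2 had an unadjusted p under 0.05 (all genes 2.94%), and the median difference was -0.01, from -0.05 to 0.02 with 1 array left out. Both were dim. Rps13, a protein of the small subunit, read 4.07, 4.56 and 4.14 in shCT without RA and 3.64, 3.03 and 3.81 with RA, but 4.01, 4.39 and 3.41 in shLOXL2 without RA and 4.07, 4.02 and 4.39 with RA. The shCT groups did not overlap and the shLOXL2 groups did. Its changes were -0.76 ± 0.25 and 0.22 ± 0.25, and they differed by 0.98 ± 0.35 (limma adjusted p = 0.9999). Rpl11 read 4.61, 4.48 and 5.0 in shCT without RA and 4.93, 4.76 and 5.15 with RA, and 4.85, 5.03 and 4.79 in shLOXL2 against 4.76, 4.67 and 4.34. Its changes, 0.25 ± 0.17 and -0.30 ± 0.17, differed by -0.55 ± 0.23 (limma adjusted p = 0.9999). The precision of this comparison was low, with an interval within 0.5 log2 units of zero for 29 of the 67 members and within 1 for 62.

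Members moved together only weakly from array to array. The deviations from the group means correlated between pairs of members with a median of 0.155 over 12 arrays, 0.230 among the members of 10 or more and 0.069 among those under 8. For genes taken at even steps through the whole table the median was 0.024. The arrays share one main axis of deviations, computed without the members, which held 49.5% of the variance. Its direction was set so that it rose with the members' mean deviation, which favours positive values. The members' median correlation with it was 0.238 (0.477 for those of 10 or more, -0.08 for those under 8). Regardless of sign, the median correlation was 0.556 for the members and 0.552 for all genes. The mean of the members' centred values was 0.06 ± 0.07 log2 units (SD, n = 3) in shCT without RA, -0.02 ± 0.07 with RA, 0.03 ± 0.05 in shLOXL2 without RA and -0.06 ± 0.03 with RA. The genes outside the family whose 12 array values were most like that mean were Cox6b1 (Pearson r = 0.950), Dctpp1 (0.933), Gtpbp3 (0.922), Dmac1 (0.921) and Olfr26 (0.918), the last with a mean signal of 2.51, under every array median.

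Some genes on other lists of ribosome production fell with RA, where 4.8% of all genes did. RNA polymerase I makes the precursor of the ribosomal RNA, and of 15 genes for it and its factors 4 fell and 0 rose on average (median -0.20). They were Polr1b (-0.55 ± 0.09), its second largest subunit, Rrn3 (-0.50 ± 0.08), the factor that brings it to the promoter, Polr1e (-0.33 ± 0.08) and Cd3eap (-0.30 ± 0.09). Of 35 ribosome biogenesis factors, which process that RNA and assemble the subunits, 10 fell and 0 rose (median -0.22), with Nhp2 at -0.55 ± 0.11, Nolc1 at -0.50 ± 0.11 and Rrp1b at -0.49 ± 0.08. Of 71 mitochondrial ribosomal protein genes 6 fell and 0 rose (median -0.15), with Mrps17 at -0.57 ± 0.08, Mrpl2 at -0.41 ± 0.10 and Mrps18b at -0.38 ± 0.10. With 1 array left out these counts ran from 2 to 4, from 6 to 13 and from 2 to 9, and the medians remained negative in each of the settings run. Over all genes 761 to 1305 of 22180 fell in the fits with 1 array left out. In the other settings the counts ran from 3 to 7, from 8 to 19 and from 3 to 29. There 907 to 2936 of the 22180 genes fell, or 1196 of the 11090 left by the filter on dim genes. The most biogenesis and mitochondrial genes fell with array weights (19 and 29) and the most polymerase genes with the axis of deviations as a covariate (7). Of all 22180 genes 2936 fell with array weights and 2049 with the axis. The polymerase count was 2 without the second shCT or the second or the third shLOXL2 array at day 0, or the second or the third shCT array at day 1. The biogenesis count was 6 without the second shCT or shLOXL2 array at day 0, the third shCT array at day 1, or the second or the third shLOXL2 array at day 1. The mitochondrial count was 2 or 3 without any one array except the third shCT and the first shLOXL2 array at day 0 and the first shCT array at day 1. Where it was 2 or 3 of 71, 761 to 965 of the 22180 genes fell. Whether these lists differ from the cytosolic members, of which 1 of 67 fell, was not tested.

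Of 10 Myc family genes, 3 fell and 1 rose with RA. Mycn fell by 2.24 ± 0.12 log2 units and Myc fell by 0.72 ± 0.12, both activators of ribosome production. Mnt, a repressing partner, fell by 0.34 ± 0.10, and it passed in 13 of the 23 settings, the one reported included. Mxd4, another repressing partner, rose by 0.96 ± 0.09. Of 13 genes of the mTOR pathway and TOP regulators 0 passed (median -0.10), with Larp1 at -0.16 ± 0.08 and Mtor at -0.12 ± 0.10. Of 14 translation factors and other genes with TOP messenger RNAs 0 passed (median -0.04), with Eef1a1 at 0.01 ± 0.08, Eef2 at -0.03 ± 0.09 and Npm1 at -0.01 ± 0.13. Fau, which encodes the small-subunit protein S30 under another symbol, stood at -0.09 ± 0.09. For knockdown on average 0 genes of any of these lists passed.

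**Figure D5:**
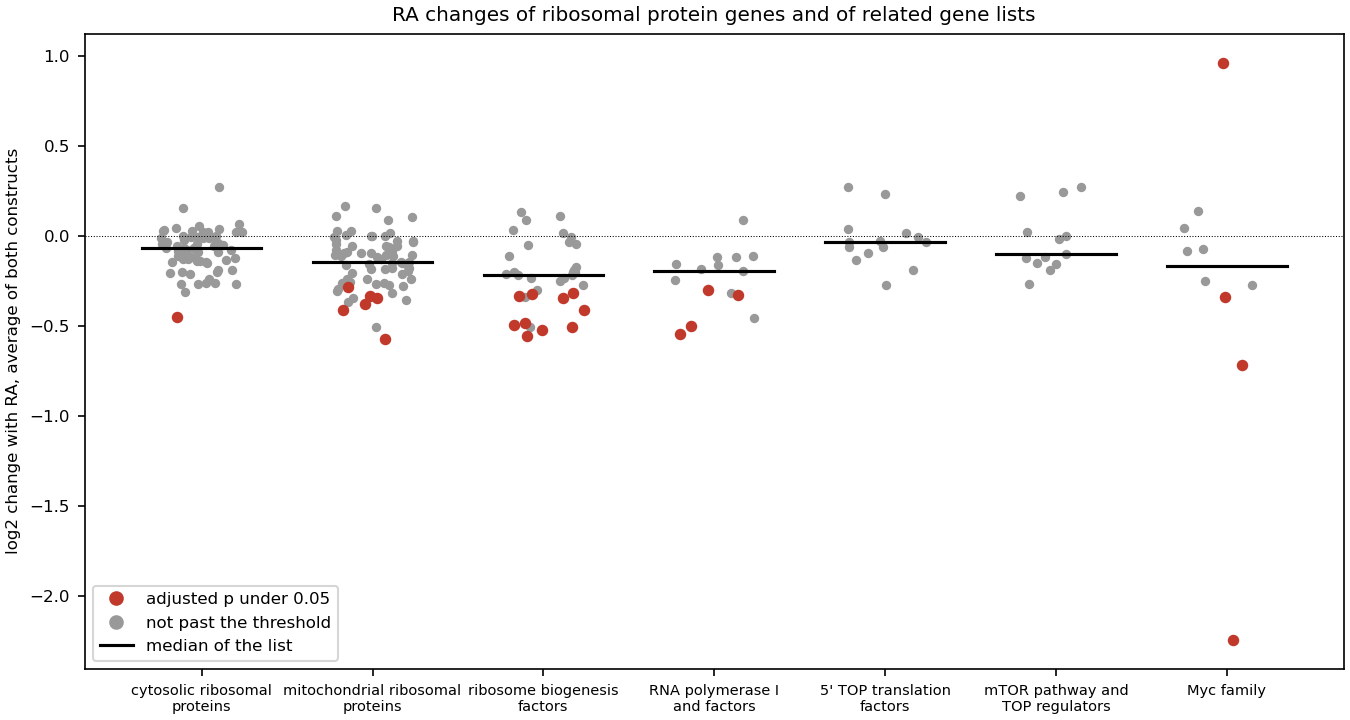
Change with RA, averaged over both constructs, of each gene in the family and in 6 related lists, in log2 units, with red points past an adjusted p of 0.05 and lines at the medians. The medians of the polymerase I and biogenesis lists are -0.20 and -0.22, that of the cytosolic ribosomal protein genes is -0.07, and Mycn lies lowest at -2.24.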

How the data were processed

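Log2 signals per transcript cluster were used as the authors deposited them, 1 column per array. Per the labels' protocols, RNA was extracted with Trizol and 100 ng per sample labelled by an Affymetrix whole-transcript assay. The submitters' processing notes name RMA, limma and R 3.1.1, without role or order. No raw scans were used, so background correction was not checked, and between-array normalization hides global shifts of RNA content. The number of arrays, 3 per group, limits the precision.

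Of 41345 clusters, 23521 carried 1 gene of the platform annotation, 1814 several and 16010 none here; those with 1 gene made a table of 22180 genes. Changes come from limma (version 3.58.1; R 4.3.3; statmod 1.5.0), from one fit with a mean per group over all 12 arrays, with Benjamini-Hochberg adjustment over all genes at 0.05. Errors of changes are standard errors (SE) of that fit. The fit was tested on simulated data with noise drawn independently for each gene. These arrays share an axis of deviations, so that test does not measure how reliable the calls are here. Members and gene lists were chosen with earlier results of these data known; lists are given by counts and medians, without a set test. Genes named with values were members past the threshold, otherwise the 5 smallest p-values, the members of the P stalk, paralog, stem cell ribosome and reference gene lists, the 3 widest and 3 narrowest ranges of group means, and up to 3 genes of each other list; Rpl5, Rps19, Eef1a1, Eef2, Npm1, Mtor, Rps12 and others described for their role were added after their values were seen.

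Same-numbered arrays with and without RA deviated together in each of the 3 shLOXL2 pairs (correlations from 0.216 to 0.558), which met the rule for pairing. In shCT correlations ran from 0.039 to 0.631, which did not meet that rule. Arrays of different numbers in shLOXL2 ran from -0.463 to 0.369, so the highest of these exceeded the lowest of the pairs. The fit reported holds no replicate block, so its values leave the pairing out. Alternatives were a replicate block, variance trend, a filter on dim genes, other normalizations, means of clusters, array weights, an axis covariate and leaving out each array. The fits over all clusters and shared clusters were read after seeing the data.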

Additional observations from a re-analysis of the deposited data

Results flagged for a closer look

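Clusters shared by a ribosomal protein gene and another gene were left out of the family. Over the 57 such clusters the median change with RA on average was -0.12 log2 units, and 2 passed an adjusted p of 0.05 in the limma fit over all clusters, where 4.68% of all clusters passed. The 2 were singled out by passing there, on the same 12 arrays, in clusters outside the table of genes, after the data were seen.

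The cluster shared by Rpl12 and Gm11425 read 8.08, 7.99 and 7.92 log2 units in shCT without RA and 7.68, 7.44 and 7.53 with RA, and in shLOXL2 7.88, 8.01 and 7.75 without RA and 7.67, 7.49 and 7.57 with RA. The groups did not overlap in either construct, and the change was -0.38 ± 0.08 (adjusted p = 0.027). A brighter cluster shared by the same genes had a change of 0.06 ± 0.08 (adjusted p = 0.767).

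The cluster shared by Snord14a, a small nucleolar RNA, and Rps13 read 8.16, 7.90 and 7.65 in shCT without RA and 7.61, 7.43 and 7.29 with RA, and in shLOXL2 7.54, 8.07 and 7.93 without RA and 7.45, 7.25 and 7.23 with RA. The groups did not overlap in either construct, and the change was -0.50 ± 0.12 (adjusted p = 0.044). The cluster of Rps13 alone, which is far dimmer, had changes of -0.76 log2 units in shCT and 0.22 in shLOXL2. Other shared clusters of Rps13, with means of 9.69 and 5.92, changed by -0.14 ± 0.12 and -0.12 ± 0.12 on average over both constructs.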

How the results depend on the processing

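Rps20 kept its fall and its side of the threshold in the 22 alternatives run, and the median over the members stayed negative for RA on average in each of them. The counts of members past the threshold moved most with array weights, which spanned 0.332 to 6.26 across the arrays: 10 for RA in shCT, 5 for RA in shLOXL2, 12 for RA on average, 5 for knockdown without RA and 1 for knockdown on average, against 0, 0, 1, 0 and 0. With the axis within groups as a covariate they were 3 for RA in shCT and 3 for RA on average. With a fixed replicate block within construct they were 1 and 2, and with a random replicate block (consensus correlation 0.323) 2 and 2. Without genes dimmer than the median gene they were 1 and 2, where 1133 and 2365 of the 11090 remaining genes passed. With arrays centred on their medians, or with a variance trend and robust moderation, 2 members passed for RA on average. Of the 22180 genes 2141 and 2397 passed there. The blocks changed no count for RA in shLOXL2, which stayed at 0, while the number of all genes called there went from 768 to 1624 with the fixed block. Same-numbered arrays of different constructs correlated between -0.550 and 0.197, so the block over all arrays pairs a number only. Rpl7l1 joined Rps20 for RA on average under array weights, centring, the axis, both blocks, the trend and the dim filter (adjusted p from 0.0041 to 0.047), and the cause was not tested. With 1 array left out the counts ran from 0 to 1 for RA in each construct, from 1 to 2 for RA on average and stayed at 0 for knockdown and for the difference; the count of 1 in each construct came without the first shLOXL2 array at day 0, and that of 2 without the first shCT array at day 0, where Rpl39 passed, or the third shLOXL2 array at day 0, where Rpl7l1 passed. In the fits with 1 array left out, 483 to 1049 of the 22180 genes passed for RA in shCT. In shLOXL2 444 to 916 passed, and on average 1684 to 2605. The median over the members for RA in shCT ran from -0.12, without the third shCT array at day 0, to 0.0045, without the third shCT array at day 1. No result changed sign among those past the threshold. The gap to background limits the 7 members below 5 log2 units.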
